A study of Homo sapiens with 6 samples.

Results

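The IFIT, IFITM and IFI effector genes described here are IFIT1, IFIT2, IFIT3 and IFIT5, IFITM1, IFITM2 and IFITM3, and IFI6, IFI27 and IFI44L. They were chosen by gene symbol with earlier results of these data known, and each of the 10 matched 1 of the 20729 rows of the count table. Expression was measured by RNA-seq in SW620, an established human colorectal cancer line, in 3 libraries of cells given siRNA against OSBPL3 (siOSBPL3) and 3 libraries of cells given control siRNA (siNC). The OSBPL3 protein belongs to the oxysterol-binding relatives, which move lipids between membranes, and the series title links it with the Hippo-YAP pathway and MEK inhibitor response. The labels name no other agent, and they give neither the sequence, the dose nor the duration of the siRNA. Nor do they tell if replicates were separate cultures, so that p-values weigh group differences only against the spread of these libraries, which may be technical variation.

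Interferons are secreted proteins that cells make after sensing viral or misplaced nucleic acid. Their receptors signal to transcription factors that bind interferon-stimulated response elements in gene promoters. IFIT, IFITM and IFI genes are among the classical targets: IFIT proteins bind viral RNA in the cytoplasm, IFITM proteins sit in membranes and hinder fusion with enveloped viruses, and the IFI genes were named for being inducible by interferon.

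The libraries held 34569895 to 39701340 counts in siOSBPL3 and 30040020 to 33667128 in siNC. OSBPL3 itself had 40.2, 12.2 and 15.1 CPM (counts per 1e6 counts of the library, on totals scaled by TMM) in siOSBPL3, against 179, 174 and 175 CPM in siNC, a log2 fold change of -2.97 ± 0.48 (SE, edgeR quasi-likelihood test, Benjamini-Hochberg adjusted p = 0.0016). The groups differed across the transcriptome: 12437 of 15506 tested genes (80.2%) were called at an adjusted p of 0.05 (40.4% higher and 39.8% lower in siOSBPL3), and log2 CPM correlated across genes at 0.9853 to 0.9906 within siOSBPL3 and at 0.9932 to 0.9937 within siNC, but at 0.7603 to 0.7672 between the groups. Of 15 colorectal epithelial markers, EPCAM, KRT8, KRT18 and KRT19 were at 523 CPM or more in each siOSBPL3 library and at 515 CPM or more in each siNC library, while KRT20, CDX1, GPA33 and CEACAM5 did not exceed 0.637 CPM in any library. Of the 13 tested, 6 were called higher (EPCAM, KRT19, CDX2, CDH17, LGALS4 and MUC13) and 4 lower (KRT8, KRT18, VIL1 and HNF4A). KRT18 had a mean of 1131 CPM in siOSBPL3, against 2184 in siNC. Once GC content and length were corrected for, 4 were higher and 5 lower. The intestinal regulator CDX2 was at 53.4 to 72.7 CPM in siOSBPL3, against 0.708 to 1.46 in siNC, and the microvillus gene VIL1 at 60.1 to 64.9 CPM, against 478 to 485. The leukocyte marker PTPRC was at 0.249 CPM or less in every library, and 10 leukocyte markers summed to 13.2 to 22.1 CPM in siOSBPL3, against 24.6 to 27.4 in siNC. In siNC most of that sum was CD68, with a mean of 19 CPM. Of the 7 leukocyte markers tested, 3 were called higher in siOSBPL3 (CD8A, CD14 and ITGAM) and 3 lower (CD4, CD68 and LYZ). Summed fibroblast markers were at 7.38 to 12.5 CPM in siOSBPL3, against 71.6 to 75.9 in siNC, where LUM made up most of the sum and was listed at 0 in siOSBPL3. Summed endothelial markers were at 14.9 to 22.9 CPM in siOSBPL3, mainly ESAM, against 2.02 to 3.17 in siNC. The part of these differences in the results on interferon effector genes was not tested. Every library is labelled SW620, but whether siOSBPL3 and siNC held the same cells was not tested, and with CDX2, VIL1 and LUM so far apart each siOSBPL3 over siNC value here compares these libraries. Any difference between the cultures other than the siRNA cannot be told apart from it.

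All 10 genes were higher in siOSBPL3 by the edgeR quasi-likelihood test with Benjamini-Hochberg adjustment, and no gene's groups overlapped. Since 40.4% of all genes tested were called higher (41.5% had siOSBPL3 libraries entirely above siNC libraries), the call alone does not set the effectors apart. The median of their log2 fold changes was 7.22, against -0.00089 over all genes tested, of which the middle 90% lay between -3.75 and 3.91. Called and at least 4-fold higher were 9 of the 10, against 12.5% of all genes tested, and at least 32-fold higher were 7, against 3.27%. The exceptions to the 32-fold mark were IFIT5, IFITM2 and IFITM3. Once GC content and length were corrected for, these counts were 8 and 6, with IFITM2 under 4-fold and IFI6 under 32-fold. The shares of 12.5% and 3.27% belong to the uncorrected fit, and those over all genes after the correction are not given here. Such sizes were not particular to the 10, since 14 of 37 other interferon-induced effectors were also at least 32-fold higher. The 10 and this list were chosen with earlier results of these data known, so these shares do not test whether they stand apart. IFITM1, IFI27 and IFI44L passed the filter on low counts (0.293 CPM) only through their siOSBPL3 libraries, whereas the other 7 would have passed on siNC alone. Some of the 14 other effectors, RSAD2 and CMPK2 among them, also passed it only through siOSBPL3. In bulk RNA, more cells expressing a gene and more RNA per cell cannot be told apart.

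The promoters were examined because the members moved together. RefSeq promoter windows on GRCh38.p14, from 250 bases before to 50 bases after a transcript start, were found for 8 of the 10 genes, 10 windows in all (not IFIT2 or IFITM2). The windows were searched on both strands for the core of an interferon-stimulated response element (GAAA and GAAA with any 2 letters between them) and for the core of a gamma-activated site (TTC and GAA with any 3 letters between them). The 170 bases before the start are printed for 7 genes, 2 IFIT genes that changed by different amounts (IFIT1 and IFIT5), both IFITM genes with an entry and the 3 IFI genes, each 5′ to 3′ on the strand of its gene; capitals mark the response-element core or its reverse complement.
IFIT1, chr10:89392453-89392622, strand plus: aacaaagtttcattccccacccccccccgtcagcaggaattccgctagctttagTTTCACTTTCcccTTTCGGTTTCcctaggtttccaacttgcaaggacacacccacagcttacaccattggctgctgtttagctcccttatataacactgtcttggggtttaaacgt
IFIT5, chr10:89414398-89414567, strand plus: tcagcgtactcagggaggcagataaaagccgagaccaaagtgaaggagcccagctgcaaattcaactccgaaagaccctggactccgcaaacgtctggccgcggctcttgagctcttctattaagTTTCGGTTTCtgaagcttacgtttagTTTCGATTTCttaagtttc
IFITM1, chr11:313870-314039, strand plus: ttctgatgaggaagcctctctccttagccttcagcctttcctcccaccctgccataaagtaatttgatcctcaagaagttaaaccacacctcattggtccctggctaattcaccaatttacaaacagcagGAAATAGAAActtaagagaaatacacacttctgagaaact
IFITM3, chr11:320861-321030, strand minus: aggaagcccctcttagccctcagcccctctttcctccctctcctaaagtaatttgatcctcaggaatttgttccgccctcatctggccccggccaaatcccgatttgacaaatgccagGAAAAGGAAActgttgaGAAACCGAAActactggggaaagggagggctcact
IFI6, chr1:27672193-27672362, strand minus: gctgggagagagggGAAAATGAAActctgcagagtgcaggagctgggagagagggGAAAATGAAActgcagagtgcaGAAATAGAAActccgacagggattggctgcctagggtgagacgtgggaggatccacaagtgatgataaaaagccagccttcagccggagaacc
IFI27, chr14:94110566-94110735, strand plus: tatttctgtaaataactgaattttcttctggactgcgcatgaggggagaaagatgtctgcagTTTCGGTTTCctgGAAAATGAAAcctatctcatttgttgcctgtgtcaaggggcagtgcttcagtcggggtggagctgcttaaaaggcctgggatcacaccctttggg
IFI44L, chr1:78620278-78620447, strand plus: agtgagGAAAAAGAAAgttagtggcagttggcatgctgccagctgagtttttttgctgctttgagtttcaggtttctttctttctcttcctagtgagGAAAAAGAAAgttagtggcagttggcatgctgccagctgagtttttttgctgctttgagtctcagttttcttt

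All 10 windows held at least 2 matches to the response-element core, whereas 1255 of the 35116 promoters of the table (3.57%) held any and 91 (0.259%) held 2 or more. In IFIT1 the matches lay from -116 to -107 and from -103 to -94 relative to the start, both on the strand opposite to the gene. IFITM3 had them nearer to the start, from -52 to -43 and from -35 to -26, and on its own strand. IFIT5 and IFI6 had 3 matches each. The last of those of IFIT5 ran across the start, from -4 to 5, as did the second of IFITM1, from -6 to 3, so that neither is capitalised in the letters above. In IFI6 the first and the second match stood in copies of the same 26 bases, 41 bases apart, and in IFI44L both matches stood in copies of a 66-base stretch, 91 bases apart. The gamma-activated core occurred in the window of IFITM1 and in both windows of IFI27, against 7.66% of all promoters, although the windows of IFI27 overlap and hold the same site and the same response-element matches. In each of these windows it overlapped a match to the response-element core. Among 41 promoters of 31 other interferon-induced effectors, 22 (53.7%) held the response-element core and 8 held it at least 2 times. Of 11 promoters of other IFIT, IFITM and IFI genes, 3 (27.3%) held the core and 1 held it at least 2 times. In other lists the core was found in 3 of 6 promoters of interferon ligands (50%) and 2 of 11 of genes of RNA and DNA sensing (18.2%). It was found in 1 of 22 promoters of interferon signalling genes (4.55%), 0 of 8 of reference genes and 2 of 3 of fibroblast markers. The core was absent from 7 promoters of enzymes acting on IFITM3 and from those of colorectal epithelial (9), leukocyte (13) and endothelial (2) markers. A match is a description of the letters and says nothing of what binds there.

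**Figure D1:**
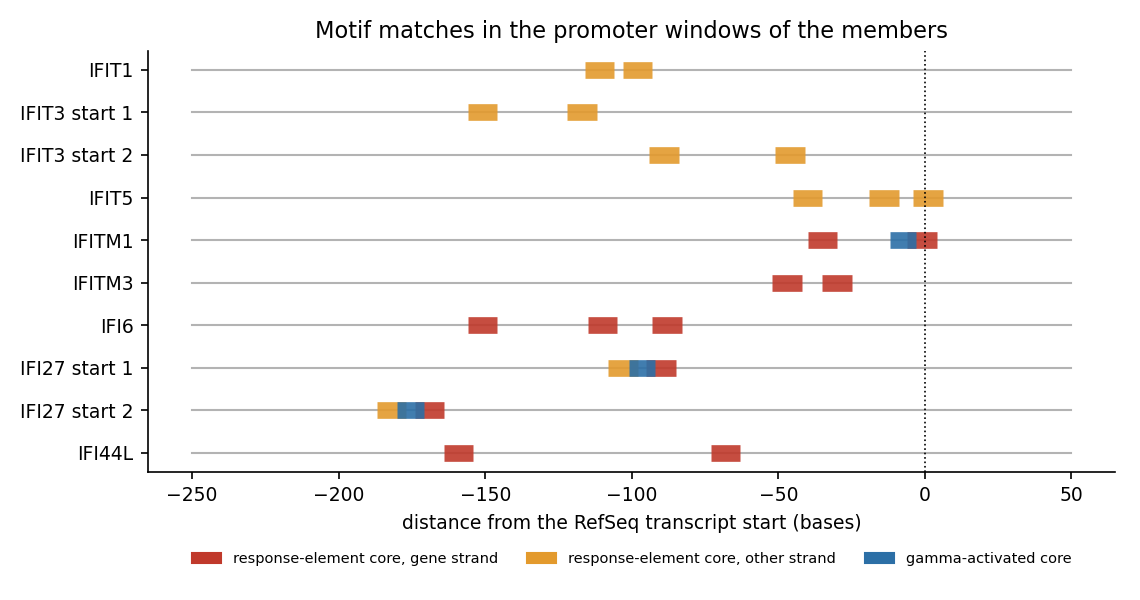
Positions of motif matches in the 10 promoter windows of 8 genes, as distance in bases from the RefSeq transcript start (dotted line). Red and orange boxes are matches to the response-element core on the gene's strand and on the other strand, and blue boxes are matches to the gamma-activated core; every window has at least 2 response-element matches, and IFIT5 and IFI6 have 3.

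The IFIT genes lie side by side on the plus strand of chromosome 10, in the order IFIT2 (chr10:89302046-89309271), IFIT3 (chr10:89327997-89340968), IFIT1 (chr10:89392623-89406487) and IFIT5 (chr10:89414568-89420997). IFIT1, IFIT2 and IFIT3 were at 601 CPM or more in every siOSBPL3 library and at 6.44 CPM or less in every siNC library, while the 2 groups were much closer for IFIT5. IFIT1, which binds viral RNA whose cap lacks the host's methylation, had 793, 1135 and 1136 CPM in siOSBPL3, against 4.93, 5.45 and 5.66 CPM in siNC. The lowest siOSBPL3 library thus stood far above the highest siNC library, and the log2 fold change was 7.58 ± 0.17 (SE; edgeR quasi-likelihood test, adjusted p = 6.4e-12). IFIT2, a partner of IFIT1 and IFIT3 in RNA-binding complexes, had 675, 907 and 938 CPM in siOSBPL3, against 5.69, 4.97 and 6.44 CPM in siNC. Its log2 fold change was 7.20 ± 0.17 (edgeR, adjusted p = 7e-12), with no overlap between the groups. IFIT3, which stabilises IFIT1 and sharpens its RNA binding, had 601, 960 and 831 CPM in siOSBPL3, against 5.14, 5 and 5.66 CPM in siNC. It changed by 7.24 ± 0.19 (edgeR, adjusted p = 1.6e-11), again without overlap.

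IFIT5, which binds RNA with a triphosphate end, had 49.4, 52.1 and 58.5 CPM in siOSBPL3, against 24.1, 24.9 and 25.6 CPM in siNC. The groups did not overlap, and the log2 fold change of 1.10 ± 0.09 (edgeR, adjusted p = 3.8e-07) corresponds to 2.15-fold. It was the smallest change of the 10 in this fit, but after the GC and length correction IFIT5 was at 1.90 and IFITM2, at 1.48, was smaller. The uncorrected value lies just above the upper quartile of all genes tested, which was 1.02. In GENCODE 29, IFIT1, IFIT2 and IFIT3 lie inside LIPA, a lysosomal lipase gene on the opposite strand, and the strand setting of the counting is not given in the sources used here. LIPA moved the other way, at 65.3, 73.4 and 77.9 CPM in siOSBPL3 and 148, 149 and 145 CPM in siNC (log2 fold change -1.03 ± 0.09, edgeR, adjusted p = 3e-07).

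**Figure D2:**
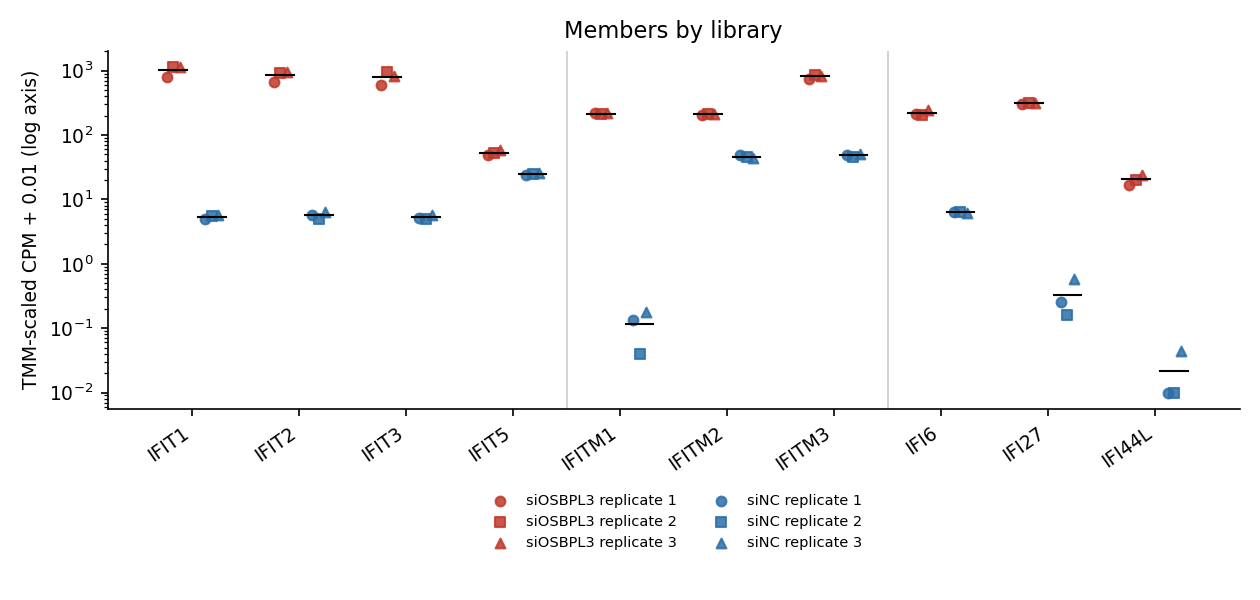
TMM-scaled CPM plus 0.01, on a log axis, of the 10 genes in each library, with siOSBPL3 libraries in red to the left of siNC libraries in blue and a black line at each group's mean (n = 3 each). No gene's groups overlap, IFIT5 has the narrowest gap (49.4 to 58.5 against 24.1 to 25.6 CPM), and IFITM1, IFI27 and IFI44L are below 1 CPM in every siNC library.

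The IFITM genes lie together near the end of chromosome 11, IFITM2 (chr11:307816-309395) and IFITM1 (chr11:314040-315272) on the plus strand and IFITM3 (chr11:319676-320860) on the minus strand. Their siNC levels separated them: IFITM2 and IFITM3 were each near 50 CPM, and IFITM1 was almost absent. All 3 were at 202 CPM or more in every siOSBPL3 library. IFITM1, which acts mostly at the plasma membrane, had 221, 208 and 217 CPM in siOSBPL3, against 0.122, 0.0301 and 0.169 CPM in siNC, where its 3 libraries held only 4, 1 and 5 counts. Its log2 fold change was 10.96 ± 0.19 (SE; edgeR quasi-likelihood test, adjusted p = 1.4e-12), without overlap between groups. This was the largest of the 10 in this fit, but IFI44L was larger after the GC and length correction (11.30, against 10.43 for IFITM1) and without siNC replicate 3 (12.51, against 11.41). IFITM2, which restricts virus entry from endosomes, had 202, 215 and 210 CPM in siOSBPL3, against 48.8, 45 and 43.5 CPM in siNC. The groups were separate and the change was 2.19 ± 0.08 (edgeR, adjusted p = 3.5e-10), or 4.57-fold. IFITM3, the endosomal protein best known for limiting influenza virus entry, had 751, 857 and 837 CPM in siOSBPL3, against 49.4, 45.8 and 49.9 CPM in siNC. It changed by 4.07 ± 0.09 (edgeR, adjusted p = 6.9e-12), or 16.8-fold.

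The IFITM genes are close paralogues, and reads common to them may have been split or dropped in counting. Of all windows of 100 bases in the GENCODE 29 model of IFITM1, 37.7% occurred also in transcripts of IFITM2 or IFITM3, against 5.9% for IFITM3 and 0.0% for the model of IFITM2. Most of the shared IFITM1 windows occurred in transcripts of IFITM2, which overlaps IFITM1 on the plus strand in GENCODE 29. Sharing through this overlap and sharing through likeness of the paralogues were not told apart. Summed over the 3 genes, the log2 fold change was 3.72 (edgeR, adjusted p = 6.7e-12). A split of reads between the genes cannot change the sum, but reads dropped in counting would be missing from it. Within libraries, the log2 ratio of IFITM3 to IFITM1 was 1.77, 2.04 and 1.94 in siOSBPL3, against 7.80, 8.46 and 7.54 in siNC, a difference of -6.02. In siNC IFITM1 averaged 0.107 CPM, about the 0.1 CPM added before the log, and with 0.5 counts added instead the difference was -6.93. The log2 ratio of IFITM2 to IFITM3 was -1.90, -1.99 and -1.99 in siOSBPL3, against -0.02, -0.03 and -0.20 in siNC, a difference of -1.88. In both ratios the groups were separate, but an exact permutation test of 3 libraries against 3 (two-sided) cannot give a p below 0.10, which both reached (0.12 adjusted over the 7 ratios tested).

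The IFI genes lie on other chromosomes: IFI6 (chr1:27666064-27672192, minus strand), IFI44L (chr1:78620448-78646145, plus strand) and IFI27 (chr14:94105894-94116690, plus strand). IFI27 and IFI44L went with IFITM1 in being nearly undetected in siNC, whereas IFI6 was at a low but even level there. IFI6, a membrane protein of the endoplasmic reticulum that limits flavivirus replication, had 208, 204 and 242 CPM in siOSBPL3, against 6.39, 6.39 and 6.20 CPM in siNC. The groups were far apart, with a log2 fold change of 5.11 ± 0.11 (SE; edgeR quasi-likelihood test, adjusted p = 3.9e-12). IFI27, a small hydrophobic protein of mitochondrial and nuclear membranes, had 306, 314 and 319 CPM in siOSBPL3, against 0.244, 0.151 and 0.573 CPM in siNC, from 8, 5 and 17 counts. It changed by 9.94 ± 0.21 (edgeR, adjusted p = 3.9e-12) and had the smallest relative spread of the 10 in siOSBPL3, with a coefficient of variation of 2.10%.

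IFI44L, the less studied neighbour and paralogue of IFI44, had 16.9, 20.3 and 24.1 CPM in siOSBPL3, against 0, 0 and 0.0337 CPM in siNC. That is 2307 counts over the siOSBPL3 libraries and 1 count over those of siNC, a ratio of 1967 at equal depth with a 95% counting interval from 353 to 77729. This interval covers counting error only. The fitted log2 fold change was 10.51 ± 0.39 (edgeR, adjusted p = 2.7e-10) and depends on the prior count that the fit adds. IFI44, a cytoplasmic protein that is not among the 10, had 121, 155 and 180 CPM in siOSBPL3, against 0.152, 0.0904 and 0.0337 CPM in siNC (10.61 ± 0.26, edgeR, adjusted p = 1.2e-11). The log2 ratio of IFI44L to IFI44 was -2.84, -2.92 and -2.89 in siOSBPL3, against -1.33, -0.93 and 0.00 in siNC (difference -2.13, exact permutation p = 0.10, adjusted 0.12), where IFI44L rests on the 0.1 CPM added before the log. The log2 ratio of IFI27 to IFI6 was 0.56, 0.63 and 0.40 in siOSBPL3, against -4.24, -4.69 and -3.23 in siNC, so the measured change of IFI27 was the larger (difference 4.58, exact permutation p = 0.10, the smallest possible, adjusted 0.12).

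**Figure D3:**
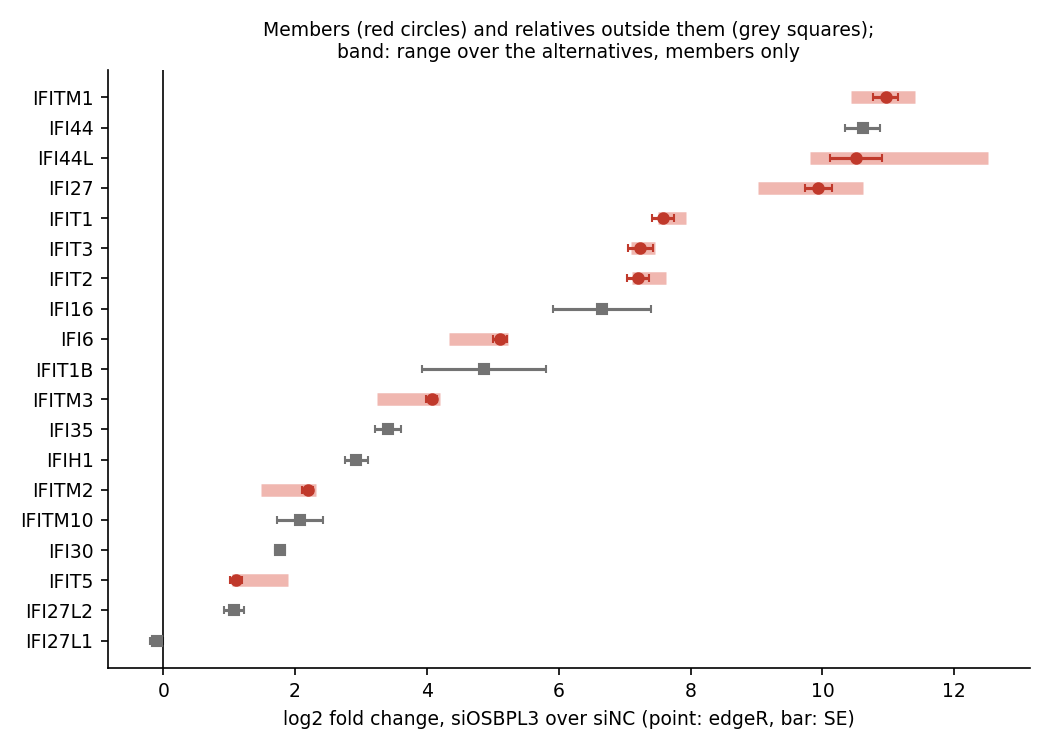
Log2 fold change, siOSBPL3 over siNC, with its SE for the 10 genes (red circles) and for the tested IFIT, IFITM and IFI genes outside them (grey squares); pale bands span the 16 alternative analyses. The values run from 1.10 for IFIT5 to 10.96 for IFITM1, the band of every member stays above 0, and IFI27L1 lies near 0.

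Together the 10 genes took up 0.399%, 0.489% and 0.48% of the counts of the siOSBPL3 libraries, against 0.0142%, 0.0136% and 0.0142% of those of siNC, a 32.6-fold difference of the means. The IFIT genes accounted for 55.4% to 62.7% of the members' counts in siOSBPL3 and for 27.5% to 30.2% in siNC. The IFITM genes had the reverse place, with 26.3% to 30.7% in siOSBPL3 and 65.1% to 67.9% in siNC. The members' counts were thus mostly IFIT in siOSBPL3 and mostly IFITM in siNC, although longer transcripts collect more counts. The share of the IFI genes was 11% to 13.9% in siOSBPL3 and 4.58% to 4.75% in siNC.

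Levels can be ordered between genes only per length, here as CPM per kilobase of a GENCODE 29 transcript model. In siOSBPL3 IFITM3 came first at 1009 ± 69.3 CPM per kilobase (SD, n = 3), followed by IFIT1 at 543 ± 105 and IFI27 at 432 ± 9.09, whose library values overlapped. IFIT3 was at 319 ± 72.8, IFI6 at 265 ± 25.7, IFITM1 at 252 ± 8, IFITM2 at 234 ± 7.65 and IFIT2 at 227 ± 38.8 CPM per kilobase. Neighbours in this run overlapped too, except that IFITM1 stayed above IFITM2 in the ranges of their libraries. IFIT5 at 13.3 ± 1.17 and IFI44L at 3.48 ± 0.615 CPM per kilobase closed the order, each clear of its neighbours. In siNC IFITM3 was also first at 59.9 ± 2.76 CPM per kilobase, before IFITM2 at 51.3 ± 3.06, IFI6 at 7.70 ± 0.131 and IFIT5 at 6.19 ± 0.184. IFIT1 at 2.85 ± 0.200, IFIT3 at 2.11 ± 0.140 and IFIT2 at 1.54 ± 0.198 followed, and IFI27 at 0.445 ± 0.306, IFITM1 at 0.125 ± 0.0824 and IFI44L at 0.00191 CPM per kilobase were last; no neighbours in the siNC order overlapped. IFIT5 thus stood above the other IFIT genes per length in siNC and below them in siOSBPL3, while IFITM3 led in both groups.

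Ratios within libraries showed which IFIT genes kept step. The log2 ratio of IFIT2 to IFIT3 was 0.17, -0.08 and 0.18 in siOSBPL3 and 0.14, -0.01 and 0.18 in siNC, with a mean of 0.09 in siOSBPL3 and 0.11 in siNC (difference -0.02, exact permutation p = 0.80). The ranges overlapped, and no difference was detectable with 3 libraries a group. IFIT1 to IFIT3 was 0.40, 0.24 and 0.45 in siOSBPL3, against -0.06, 0.12 and 0.00 in siNC, a difference of 0.34. IFIT5 to IFIT3 was -3.60, -4.20 and -3.83 in siOSBPL3, against 2.21, 2.29 and 2.16 in siNC, a difference of -6.09. For these last ratios the groups were separate, with the smallest exact permutation p that the design allows, 0.10 (adjusted 0.12).

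Within siOSBPL3 the libraries spread more for IFIT1, IFIT2, IFIT3 and IFI44L than for the other 6 genes. Replicate 1, which kept the most OSBPL3 transcript (22.8% of the siNC mean, against 6.93% in replicate 2 and 8.61% in replicate 3), had 69.8% of the mean IFIT1 level of the other siOSBPL3 libraries, 73.2% of that of IFIT2 and 67.2% of that of IFIT3. IFI44L stood at 76.0% of the others there, and IFIT5 at 89.3%. The IFITM genes, IFI6 and IFI27 were closer to the other libraries, with IFITM1 at 104%, IFITM2 at 94.8%, IFITM3 at 88.7%, IFI6 at 93.4% and IFI27 at 96.7%. Replicate 1 was the lowest siOSBPL3 library for 8 of the 10 genes, the exceptions being IFITM1 and IFI6, compared with 45.9% of the 10890 genes that averaged 5 CPM or more in siOSBPL3. Among the 35 other interferon-induced effectors above the same level, 26 were lowest there, and so were 8 of 11 reference genes (72.7%), which had a median of 85.9% of the other libraries. Coefficients of variation in siOSBPL3 were 17.1% to 22.8% for IFIT1, IFIT2 and IFIT3 and 17.7% for IFI44L, against a median of 10.7% over the 10890 genes, and 2.10% to 9.70% for the other 6. With 3 libraries, the relation to the OSBPL3 level was not tested.

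**Figure D4:**
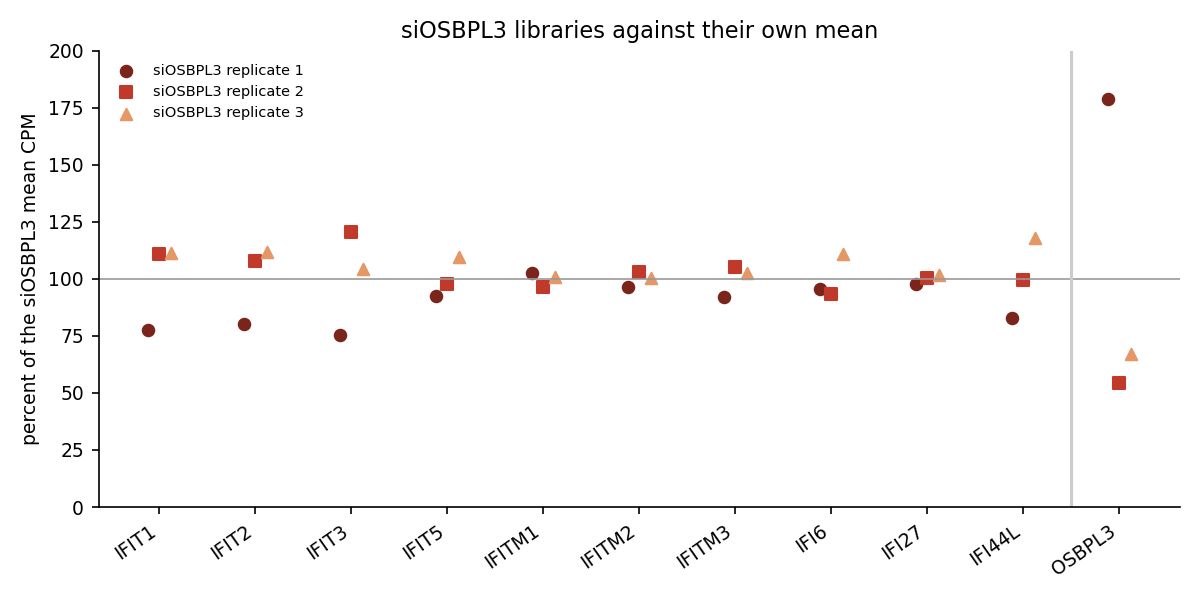
Level of each gene in the 3 siOSBPL3 libraries as a percentage of their mean CPM (grey line at 100). Replicate 1 lies lowest for IFIT1, IFIT2, IFIT3 and IFI44L and highest for OSBPL3, whereas the 3 libraries nearly coincide for IFITM1 and IFI27.

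Transcripts of 2 interferons were called higher in siOSBPL3. IFNL1, a type III interferon, had 9.41, 13 and 15.1 CPM in siOSBPL3 and was listed at 0 in all siNC libraries, at least 402-fold higher against a floor of 3 counts over the siNC group. IFNB1, the interferon beta gene, had 1.63, 1.72 and 1.69 CPM in siOSBPL3 and 0 in siNC, at least 53.7-fold higher against the same floor. Both were called by the edgeR quasi-likelihood test, with adjusted p = 1.8e-08 for IFNL1 and 4.4e-06 for IFNB1. With 0 counts in siNC, they passed the filter on low counts only through their siOSBPL3 libraries. IFNE did not pass (adjusted p = 0.59). IFNL2 and IFNL3, near-identical copies whose reads may be split, did not reach the filter, and IFNL3 had 64 counts in siOSBPL3 and 0 in siNC. IFNA1, IFNA2, IFNK and IFNG were not analysed here.

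Of 12 tested genes of RNA and DNA sensing, which include adaptors, kinases and other enzymes beside sensors, 10 were higher. That compares with 40.4% of all genes tested, and their median log2 fold change was 2.40. RIG-I, listed as DDX58, had 156, 211 and 225 CPM in siOSBPL3, against 12.9, 13 and 12.6 CPM in siNC (3.94 ± 0.14, edgeR, adjusted p = 1.6e-10). The RNA-editing enzyme ADAR and the ubiquitin ligase TRIM25 changed by 0.58 and 0.62. MAVS, the adaptor below RIG-I, was the only gene of this list called lower, at 94.9, 102 and 92.0 CPM in siOSBPL3 and 208, 206 and 207 CPM in siNC (-1.10 ± 0.08, edgeR, adjusted p = 7.7e-08). TBK1 was not called (0.09 ± 0.10, edgeR, adjusted p = 0.42), although it was called higher with scaling on reference genes (0.21) and after the GC and length correction (0.70).

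Of 20 genes of interferon receptors and signalling, 14 were higher and 3 lower, against 40.4% and 39.8% of all genes tested, and 3 were not called. Their median log2 fold change was 0.80, and after the GC and length correction 11 were higher and 2 lower. IFNGR1, a receptor chain for interferon gamma, changed by 2.69 ± 0.09. The transcription factor genes IRF9 and STAT2 moved in opposite directions. IRF9, named after its values were seen, was higher by 1.72 ± 0.11 (edgeR, adjusted p = 2e-08), and STAT2 was lower, at 44.4, 41.0 and 37.0 CPM in siOSBPL3 and 68.4, 64.0 and 70.1 CPM in siNC (-0.73 ± 0.09, edgeR, adjusted p = 1.2e-05). The kinase JAK1 was also lower, by -2.08 ± 0.11 (edgeR, adjusted p = 5.5e-09), and so was IRF2 (-0.33 ± 0.10, adjusted p = 0.0081), though its call was lost with scaling on reference genes (adjusted p = 0.11) and when GC content and length were corrected for (0.08). IRF3 was higher by 0.99 ± 0.08, a value that the same correction brought to 0.03.

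Of 37 other interferon-induced effectors, 34 were higher, against 40.4% of all genes tested, 0 were lower and 3 were not called. Their median log2 fold change was 3.24, beside 7.22 for the 10 genes, but 2 of them had fitted values above every member. These were RSAD2, an antiviral radical enzyme (11.66 ± 0.35, edgeR, adjusted p = 6.7e-11), and the nucleotide kinase gene CMPK2, which was at 0 in siNC and at least 1537-fold higher against the floor of 3 counts over the group; both were named after their values were seen. The ubiquitin-like modifier ISG15 had 1890, 1692 and 1808 CPM in siOSBPL3, against 29.8, 27.1 and 32.1 CPM in siNC (5.92 ± 0.10, edgeR, adjusted p = 1.6e-12). OASL, an oligoadenylate synthetase-like protein, changed by 7.66 ± 0.16, the antiviral zinc-finger protein ZC3HAV1 by 2.01 ± 0.08 and LGALS3BP by 0.95 ± 0.09. LGALS3BP was not called after the GC and length correction (0.13). EPSTI1 (-0.16), SP100 (-0.12) and PNPT1 (-0.11) did not pass, and SP100 (0.18) and PNPT1 (0.50) were called higher after that correction.

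Other IFIT, IFITM and IFI genes, listed by symbol and not by kinship to the members, ranged from -0.10 to 10.61 on the log2 scale. IFIH1 is counted both here and in the list of RNA and DNA sensing above. Of 9 tested, 8 were higher, against 40.4% of all genes tested, and their median log2 fold change was 2.93. IFI44 (10.61) lay above all members but IFITM1 in this fit, and IFI16, a DNA sensor, had 278 counts in siOSBPL3 and 2 in siNC. IFI44 and IFI16 passed the filter on low counts only through their siOSBPL3 libraries. After the GC and length correction 7 were higher and 1 lower, with IFI27L2 at 0.04 instead of 1.07. The lysosomal thiol reductase IFI30 had 182, 179 and 191 CPM in siOSBPL3, against 54.6, 52.6 and 54.9 CPM in siNC (1.77 ± 0.08, edgeR, adjusted p = 1.1e-09), and IFIH1, which encodes the RNA sensor MDA5, changed by 2.93 ± 0.17. IFI27L1, a relative of IFI27 that ends 3.2 kb before it, had 21.1, 19.7 and 21.5 CPM in siOSBPL3 and 22, 23.9 and 21 CPM in siNC (-0.10 ± 0.10, edgeR, adjusted p = 0.36), while the GC and length correction called it lower (-0.99). Among 5 enzymes known to act on IFITM3, 3 were lower and 2 higher, beside 39.8% and 40.4% of all genes tested. The ubiquitin ligase NEDD4 (-1.47 ± 0.08), the palmitoyltransferase ZDHHC20 (-0.68 ± 0.10) and the demethylase KDM1A (-1.04 ± 0.11) were lower. The methyltransferase SETD7 (1.13 ± 0.10) and the segregase VCP (1.06 ± 0.12) were higher (edgeR, adjusted p up to 3.7e-05 for all 5).

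**Figure D5:**
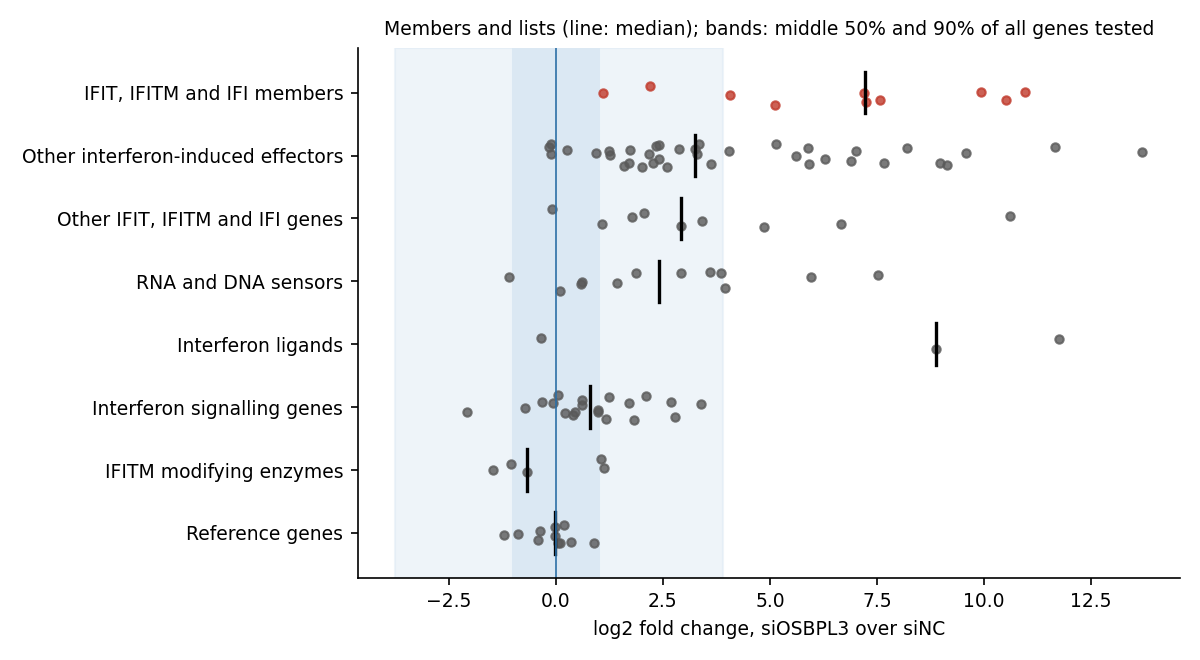
Log2 fold change, siOSBPL3 over siNC, of each tested gene of the 10 and of the lists around them, with a line at each median and bands for the middle 50% and 90% of all genes tested. The median of the 10 is 7.22, that of other effectors 3.24, that of signalling genes 0.80 and that of reference genes -0.01; fitted values of genes with 0 counts in siNC, such as IFNL1 and IFNB1, depend on the prior count.

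Genes beside the members' loci did not move as one. Of 22 such genes, 16 were tested, and 11 were higher, 3 lower (LIPA, PANK1 and ADGRL2) and 2 not called (IFI27L1 and STX12), beside 40.4% higher over all genes tested. IFI44 begins 3.6 kb after IFI44L. The other genes taken as neighbours of IFI44L lie far off, GIPC2 at 482 kb, DNAJB4 at 602.5 kb and ADGRL2 at 2660 kb. IFIT1B, an IFIT paralogue inside the cluster, had 46 counts in siOSBPL3 and 1 in siNC. Next to the IFITM genes, B4GALNT4 (4.10 ± 0.17) and PGGHG (3.06 ± 0.20) were higher, and PKP3 was too (0.88 ± 0.10), although with the GC and length correction it was called lower (-0.31). IFITM5, the bone-restricted relative 8.3 kb before the cluster, had 0 counts in siOSBPL3 and 1 in siNC. Around IFI6 the changes of AHDC1 (0.60) and FAM76A (0.55) were small beside its 5.11, with AHDC1 no longer called after the correction (-0.14). The correction also ended the calls of PANK1 (-0.14) and IFI27L2 (0.04) and called STX12 higher (0.61), and DDX24, before IFI27, lost its call under 4 alternatives.

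The genes whose profile over the 6 libraries was nearest to the mean of a family were found among 11196 others that averaged 5 CPM or more, by the root mean square distance of log2 CPM centred on siNC. For the IFIT genes they were SOCS2 (distance 0.15), DHX58 (0.16) and SRMS (0.17). For the IFITM genes they were NPDC1 (0.10), HOXB-AS3 (0.13) and SOCS2 (0.14), and for the IFI genes HECW2-AS1 (0.10), RNF144A (0.21) and CNTLN (0.25). SOCS2, near to both the IFIT and the IFITM mean, had 246, 260 and 283 CPM in siOSBPL3, against 5.48, 4.55 and 5.56 CPM in siNC. These distances describe likeness over libraries of a single contrast, which 80.2% of tested genes also separated. The family means were 5.75 (IFIT), 5.45 (IFITM) and 7.42 (IFI) in siOSBPL3 and average unlike members. Fitted changes ran from 1.10 to 7.58 for IFIT, 2.19 to 10.96 for IFITM and 5.11 to 10.51 for IFI. A gene near a mean, such as SOCS2 (5.66), need not be near any single member. HECW2-AS1, RNF144A and CNTLN had 1, 0 and 1 counts in siNC, so their distances rest on the 0.1 CPM added before the log.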

How the data were processed

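RNA-seq counts from 3 siOSBPL3 and 3 siNC libraries of SW620 cells were used. RNA was isolated with Trizol and read as paired ends on an Illumina instrument, per the labels' protocols. The authors deposited raw whole-number counts per gene symbol, not normalized. Per the submitters' processing notes, HISAT2 2.2.1, HTSeq 0.13.5 and GRCh38 were used, and the annotation, counting options and strand setting are not given in the sources used here.

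Groups and replicate numbers came from sample titles, and columns were matched by library name. All replicate pairs differed by more than sampling noise (chi-square over degrees of freedom 19.9 to 53.4 in siOSBPL3 and 2.97 to 3.59 in siNC). Counts were tested in R 4.3.3 with edgeR 4.0.16: filterByExpr (minimum count 10, total 15), TMM, a robust quasi-likelihood fit on group, two-sided, with Benjamini-Hochberg adjustment over 15506 genes and a 0.05 threshold. Fold changes are given as siOSBPL3 over siNC on the log2 scale. Folds against groups with 0 counts are bounds against 3 counts over the group, and intervals are exact binomial ones at 95%, for counting error only. Ratios within libraries added 0.1 CPM before the log2. Alternatives were DESeq2 1.42.0, limma-voom (limma 3.58.1), other scalings, filters and thresholds, a smooth GC and length correction (mgcv 1.9.3, GENCODE 29), the replicate number as a block and each library left out. Sequences and positions came from RefSeq on GRCh38.p14 by symbol. The fit was also tried on 3 simulated sets with 200 changed genes each. In the data 80.2% of tested genes were called, a setting that these sets do not cover.

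The members and the gene lists (154 entries beside the members, 138 matched, 1 by an older symbol) were chosen with earlier results of these data known. Named genes were every member, OSBPL3, up to 4 genes of highest mean CPM of each list and those called against most of it, the nearest 2 genes on each side of each locus, and the 3 nearest profiles to each family. Any further gene named completes a small count and was picked with its values in view. A gene that met the rule is not reported here.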

Additional observations from a re-analysis of the deposited data

How the results depend on the processing

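All 10 genes stayed higher and past the threshold under each of 16 alternatives, with log2 fold changes from 1.04 to 1.90 for IFIT5, 1.48 to 2.32 for IFITM2, 3.25 to 4.20 for IFITM3, 4.33 to 5.23 for IFI6 and 7.09 to 7.93 for IFIT1, IFIT2 and IFIT3. Over the alternatives IFITM1 ran from 10.43 to 11.41, IFI27 from 9.02 to 10.61 and IFI44L from 9.81 to 12.51, and leaving out siNC replicate 3, which holds the only siNC count of IFI44L, gave the top of all 3 ranges. The GC and length correction gave 1.90 for IFIT5, 1.48 for IFITM2, 3.25 for IFITM3, 4.33 for IFI6, 9.02 for IFI27 and 11.30 for IFI44L, and limma-voom gave 9.81 for IFI44L. The correction gave -2.24 for OSBPL3, and leaving out siOSBPL3 replicate 1 gave -3.68. Scaling on reference genes shifted the median of all genes by 0.12 on the log2 scale, far less than the change of any member. The 11 reference genes were themselves not steady, with log2 fold changes from -1.21 to 0.89 in the main fit. Of these, 2 were called higher and 4 lower, beside 40.4% and 39.8% of all genes tested. With at least 5 CPM, 5 IFIT, IFITM and IFI genes outside the members and 1 ligand were called higher, since fewer genes were tested, and 4 ligands were called with DESeq2 and with no filter. The GC and length correction called 1 of the IFIT, IFITM and IFI genes outside the members, IFI27L1, lower (-0.99, edgeR, adjusted p = 3.9e-06). Leaving out a library in turn gave 2 to 4 ligands. With 0.5 counts added instead of 0.1 CPM, the difference in the IFITM3 to IFITM1 log2 ratio was -6.93 and in the IFI44L to IFI44 ratio -0.80, against -2.13, both resting on at most 10 siNC counts of a gene. The IFIT2 to IFIT3 difference ran from -0.08 to 0.07 on leaving out single libraries, both signs. Same-numbered libraries did not deviate together (correlations -0.0364, 0.00961 and -0.0384), so the numbers were not taken as pairs; with the replicate block 6133 genes were higher and 6144 lower, and the members had 7.56 (IFIT1), 7.19 (IFIT2), 7.22 (IFIT3), 1.10 (IFIT5), 10.96 (IFITM1), 2.19 (IFITM2), 4.07 (IFITM3), 5.10 (IFI6), 9.95 (IFI27) and 10.50 (IFI44L). Depth limits IFITM1, IFI27 and IFI44L in siNC, where 10, 30 and 1 counts in all carry their folds.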

Other observations

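CH25H, which encodes the enzyme that makes 25-hydroxycholesterol and lies 94.7 kb before the IFIT cluster, had 8, 23 and 21 counts in siOSBPL3 and 0 in each siNC library, at least 14.8-fold higher against a floor of 3 counts over the siNC group. It did not pass the filter on low counts and was not tested. USP18, a negative regulator of interferon receptor signalling, had 41.0, 47.4 and 45.1 CPM in siOSBPL3, against 4.11, 3.80 and 4.82 CPM in siNC (3.39 ± 0.13, edgeR quasi-likelihood test, adjusted p = 2.5e-10). Both were chosen after their values were seen.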
